A study of Mus musculus with 11 samples.

Results

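The genes described here are 42 genes of the Notch pathway in mouse liver: its receptors, ligands, proteases, sugar transferases, nuclear complex, turnover and trafficking factors, and genes listed here as direct targets. They were chosen by name, and each probe was tied to its gene by the RefSeq accession printed for it in the scanner files. On this array they had 67 of the 56605 probes, and made up 42 of the 22911 genes that could be named. Of these genes 38, with 62 probes, had a probe whose signal was well above background on 2 or more of the 11 arrays and were tested, and 36 had such a signal on all 11. Jag2, Dll3, Hes5 and Hey2 were not tested, because none of their probes was well above background on any array.

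Notch receptors are activated by ligands on a neighbouring cell. Proteases then release the intracellular domain (NICD), which moves to the nucleus, joins the DNA-binding protein RBPJ and a Mastermind coactivator, and switches on genes such as those of the Hes and Hey families and Nrarp. In the liver, Notch signals are best known for guiding bile duct formation, and they also act in endothelial cells of the vessels.

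Liver RNA was compared between 4 groups of male C57Bl6/J mice 5 days after injection of AAV8, a virus vector that delivers genes mostly to hepatocytes, at 8 weeks of age. The GFP group (3 arrays) received 6e+11 vector genomes of AAV8-GFP per mouse, the NICD1 group (3 arrays) 3e+11 of AAV8-NICD1 with 3e+11 of AAV8-GFP, the NICD2 group (3 arrays) 3e+11 of AAV8-NICD2 with 3e+11 of AAV8-GFP, and the NICD1&2 group (2 arrays) 3e+11 of each NICD vector. All vectors used the CMV promoter, which is not restricted to one cell type, and the labels name no engineered allele. The GFP vector was thus lowered with each NICD vector and absent from NICD1&2. Its amount and the NICDs cannot be told apart in comparisons with GFP, nor in those of NICD1&2 with NICD1 or NICD2. The study's methods state that experiments were repeated in several mice per group, but neither they nor the labels tie an array to a mouse, so the p-values measure the spread between these arrays.

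Expression levels are given on the log2 scale relative to the 75th percentile of each array, which is set to 0. Between 57.0% and 62.0% of the spots that were no controls were well above background on each array, and no spot was saturated. Arrays of the same group correlated at 0.982 to 0.992 over the probes tested, and arrays of different groups at 0.974 to 0.992. The arrays lay on 2 slides, with every group on both. The first held 2 GFP, 1 NICD1, 2 NICD2 and 1 NICD1&2 arrays, and the second 1, 2, 1 and 1. A difference within a slide can therefore rest on a single array of a group. Each gene is represented by its brightest tested probe, levels of different probes are not compared, and in whole liver fewer cells of a type and less RNA per cell cannot be told apart.

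Forced expression of the NICDs was accompanied by higher levels of the direct targets Nrarp and Hes1, and no other member was altered against GFP at its brightest probe. Nrarp was higher with NICD2 and with NICD1&2, and Hes1 was higher in the same groups but not with NICD1 alone. A gene is called altered here as the study defined it, with p under 0.15 before adjustment and a change of more than 1.8-fold, the p coming from limma. In NICD1 against GFP 1 of the 38 tested members was altered (Nrarp), where 2.19% of all 36048 probes tested were, 1.7% higher, and that call rests on a fitted difference from GFP arrays that were not well above background. In NICD2 against GFP 2 were (Nrarp and Hes1), where 1.97% of all probes were, 1.32% higher. In NICD1&2 against GFP the same 2 genes were, where 6.24% of all probes were, 4.8% higher. All of these members were higher than in GFP, and Nrarp passed the filter for testing only through arrays with an NICD vector.

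The median log2 difference of all 38 tested members from GFP was 0.094 in NICD1, 0.057 in NICD2 and 0.043 in NICD1&2, beside 0.017, 0.022 and 0.116 over all probes tested. Each array was scaled to its 75th percentile, so the last of these says that the median probe stood higher against that percentile in NICD1&2 than in GFP. At an unadjusted p under 0.05 in limma, 2 members passed in NICD1 (5.26% of them, 5.5% of all probes), 4 in NICD2 (10.5%, 6.86% of all probes) and 11 in NICD1&2 (28.9%, 14.8% of all probes), 7 of the 11 higher and 4 lower. The count in NICD1&2 depended on single arrays and on the model: it was 5 without NICD1&2 replicate 2, 6 without GFP replicate 1, 7 without GFP replicate 3 or NICD2 replicate 2 and 13 at most, without NICD1&2 replicate 1, and it was 7 with the replicate block or with only the compared groups in the fit. The arrays of 5 members did not overlap those of GFP in NICD1 (13.2% of them, 12.4% of all probes), of 5 in NICD2 (13.2%, 13.4% of all probes) and of 13 in NICD1&2 (34.2%, 34.4% of all probes). No member passed an adjusted p under 0.05 in limma in any comparison, where 0.00832%, 0.0527% and 0.0999% of all probes did in NICD1, NICD2 and NICD1&2 against GFP. The 3 comparisons share the GFP arrays, so their values are given side by side.

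**Figure D1:**
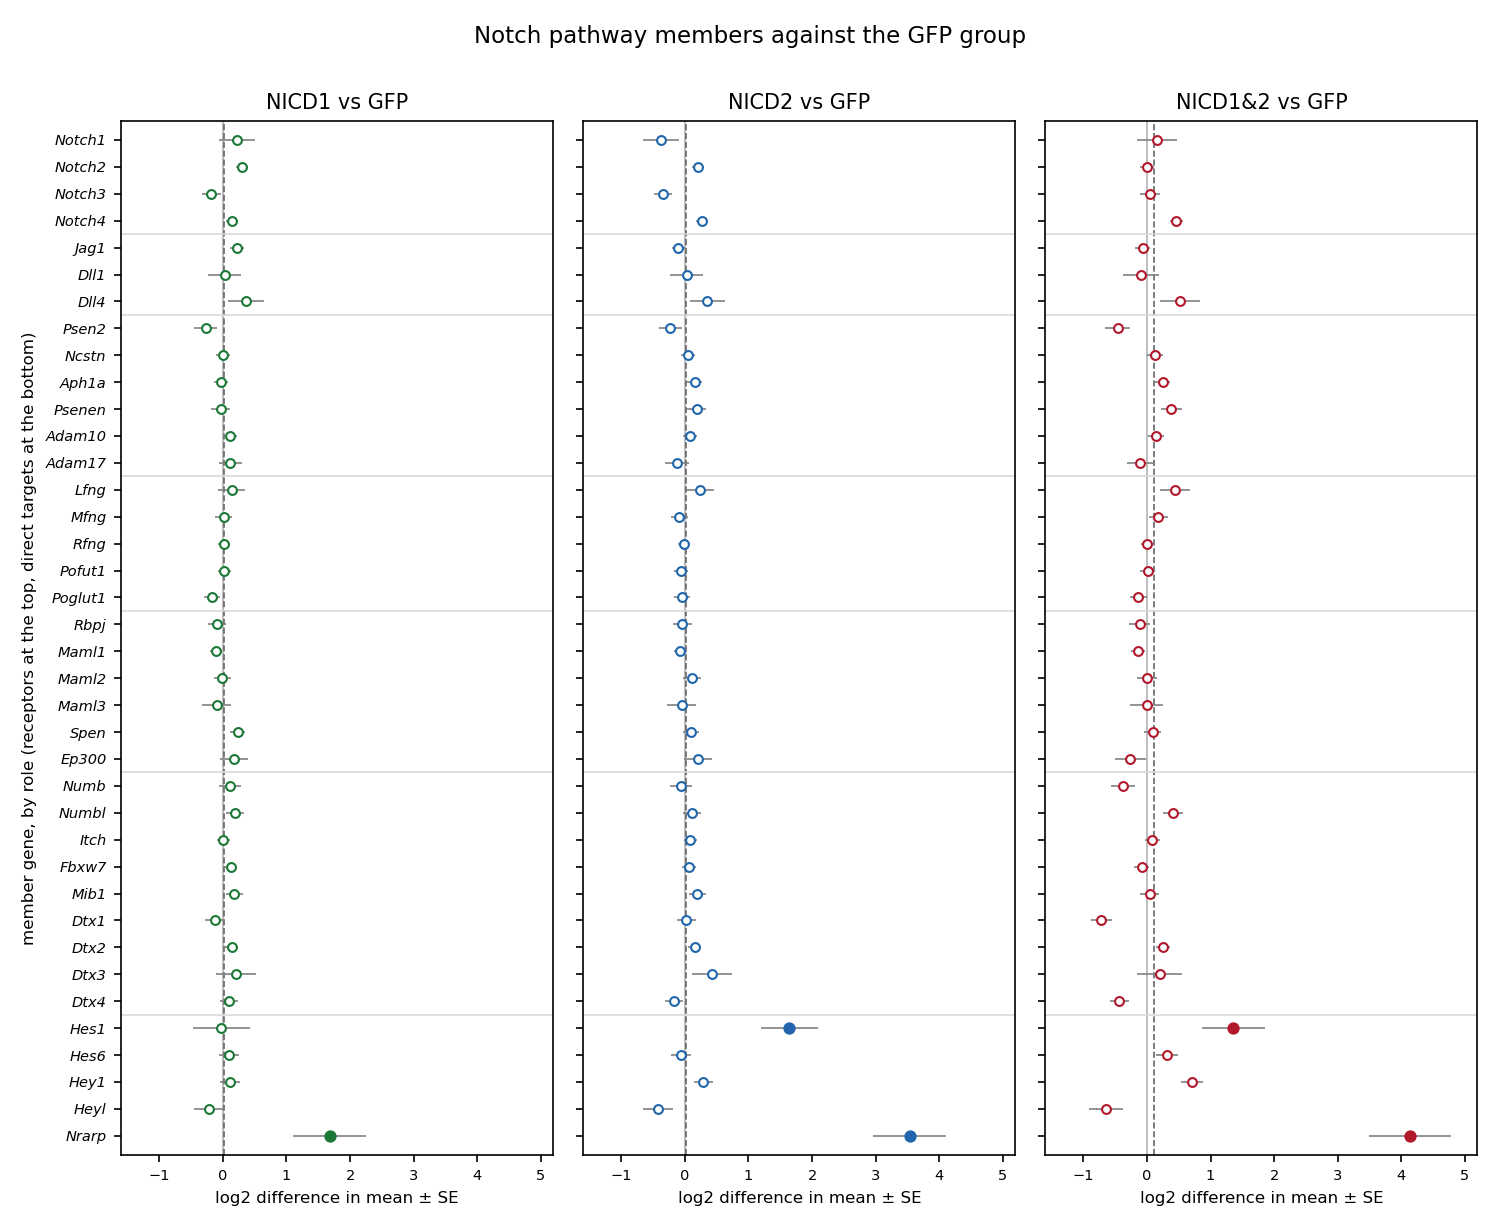
Log2 difference in mean (x axis, bars show the standard error) of the 38 tested members (y axis, grouped by role and separated by grey lines) in NICD1, NICD2 and NICD1&2 against GFP. Filled points met the study's definition of altered, the solid line marks 0 and the dashed line the median of all probes tested, the Nrarp points are fitted differences from GFP arrays that were not well above background, and Hes1 in NICD2 and NICD1&2 stands to the right of the members other than Nrarp.

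Nrarp encodes a small ankyrin repeat protein that is switched on by Notch and limits its signal by binding the nuclear complex. Its log2 levels were -6.93, -6.43 and -4.60 with GFP, -3.90, -3.83 and -5.19 with NICD1, -2.68, -2.58 and -2.10 with NICD2, and -1.86 and -1.85 with NICD1&2. All NICD2 and NICD1&2 arrays lay above all GFP and NICD1 arrays, while 1 NICD1 array lay below 1 GFP array. No GFP array and 2 of the 3 NICD1 arrays were well above background, so against GFP only bounds can be given. Nrarp thus passed the filter for testing only through arrays with an NICD vector. Its p-values against GFP are therefore given as descriptions and not as support for a difference.

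The level of Nrarp was at least 4.65-fold higher with NICD2 than with GFP (limma adjusted p = 0.103) and at least 7.06-fold higher with NICD1&2 (limma adjusted p = 0.0712). For NICD1, with 1 array not well above background and below a GFP array, no fold is given (limma adjusted p = 0.837), and an unadjusted p under 0.05 was missed in 6 of 19 alternatives, among them those without GFP replicate 1 or 2 and without NICD1 replicate 1 or 2. The exact two-sided permutation p was 0.1 for NICD2 and 0.1 for NICD1&2, the smallest that 3 against 3 or 2 against 3 arrays allow, and 0.2 for NICD1. Because the probe entered the tested set through its NICD arrays, these p-values add no support to the bounds.

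Within the first slide Nrarp was at least 4.25-fold higher with NICD2 than with GFP and at least 7.28-fold with NICD1&2. Within the second slide it was at least 5.58-fold higher with NICD2 and at least 6.64-fold with NICD1&2. Leaving out GFP replicate 1, 2 or 3 in turn gave a limma adjusted p of 0.253, 0.297 and 0.0205 in NICD2 and of 0.138, 0.164 and 0.0177 in NICD1&2. These values rest on GFP levels that were not well above background, and those below 0.05 are not read as calls. Over all alternatives the adjusted p ranged from 0.0177 to 0.397 in NICD2 and from 0.00784 to 0.398 in NICD1&2. An alternative joined normexp background correction, an added offset and quantile normalization, and is called normexp below. With it the fitted log2 difference was 0.53 in NICD2 and 0.67 in NICD1&2. The offset shrinks the differences of dim probes.

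The stretch before the start of Nrarp is shown because the bound on its difference from GFP in NICD2 and NICD1&2 was above the fold of every other member, and that of Hes5 because it is a direct target that stayed below background. Both are the 250 bases upstream of the start in RefSeq (GRCm38.p6), with capitals at the RBPJ core motif, TGGGAA, or its reverse complement, TTCCCA. The Nrarp stretch lies on the plus strand at chr2:25180508-25180757 and the Hes5 stretch on the plus strand at chr4:154960673-154960922.
Nrarp: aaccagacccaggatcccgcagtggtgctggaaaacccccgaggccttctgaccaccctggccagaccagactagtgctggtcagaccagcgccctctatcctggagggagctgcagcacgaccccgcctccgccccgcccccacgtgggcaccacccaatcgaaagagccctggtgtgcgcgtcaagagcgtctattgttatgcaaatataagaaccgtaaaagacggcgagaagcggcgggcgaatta
Hes5: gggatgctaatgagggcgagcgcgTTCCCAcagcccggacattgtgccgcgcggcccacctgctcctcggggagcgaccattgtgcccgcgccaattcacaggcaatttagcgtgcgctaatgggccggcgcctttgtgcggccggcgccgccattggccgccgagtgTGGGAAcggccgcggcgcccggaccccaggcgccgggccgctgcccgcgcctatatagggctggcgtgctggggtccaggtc

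The core motif was absent from these letters of Nrarp and present at 2 places in those of Hes5, from -226 to -221 and from -82 to -77 counted back from the start. On either strand it was found in 21.6% of the 32851 stretches of this length in the table. It was found in 12 of the 44 stretches of the 34 members in the table (27.3%), among them Rbpj itself and Lfng. Of the 4 direct targets in the table, Hes5 and Hey2 held it and Nrarp and Hes6 did not. The stretches of Hes1, Hey1 and Heyl were not analysed here.

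Hes1 encodes a transcriptional repressor of the basic helix-loop-helix family and is widely used as a readout of Notch activity. Its log2 levels were -1.77, -2.64 and -3.06 with GFP, -3.12, -1.84 and -2.58 with NICD1, -1.41, -1.06 and -0.081 with NICD2, and -1.11 and -1.15 with NICD1&2. Every array that received the NICD2 vector lay above every array that did not, and the GFP and NICD1 arrays overlapped. All 11 arrays were well above background for this probe.

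Hes1 was 3.12-fold higher with NICD2 than with GFP (log2 difference 1.64, standard error 0.45, limma adjusted p = 0.414). It was 2.57-fold higher with NICD1&2 than with GFP (log2 difference 1.36, standard error 0.50, limma adjusted p = 0.280). With NICD1 the log2 difference from GFP was -0.027 (standard error 0.45, limma adjusted p = 0.994). The exact two-sided permutation p was 0.1 in NICD2 against GFP and 0.2 in NICD1&2 against GFP. Neither difference passed the adjusted threshold. In NICD1&2 an unadjusted p under 0.05 was missed in 5 of 20 alternatives, with normexp and without GFP replicate 2, GFP replicate 3 or either NICD1&2 array, while in NICD2 it was missed in none.

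Within the slides the NICD2 difference of Hes1 from GFP was 0.97 on the first and 2.97 on the second, and the NICD1&2 difference was 1.10 and 1.90. On the second slide each of these compares 1 array with 1 GFP array. The NICD1 difference was -0.92 on the first and 0.84 on the second slide, on opposite sides of 0. With slide as a block, the log2 differences were 1.64 in NICD2 and 1.31 in NICD1&2, and with normexp they were 0.74 and 0.50.

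**Figure D2:**
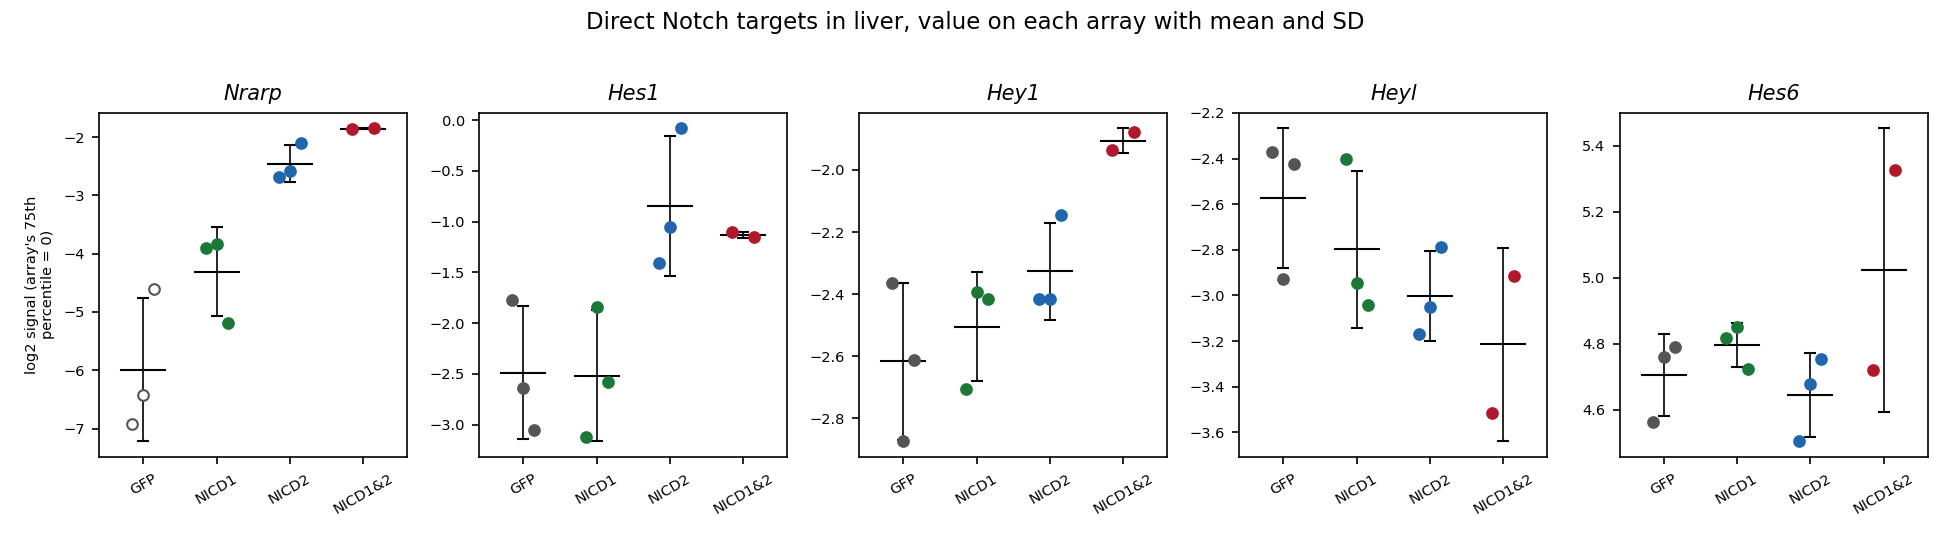
Log2 signal of the 5 tested direct targets (y axis, the array's 75th percentile is 0) on each array of the GFP, NICD1, NICD2 and NICD1&2 groups (x axis), with the mean as a horizontal line and the SD as bars. Open points mark a group in which no array was well above background; all Nrarp and Hes1 points of NICD2 and NICD1&2 lie above those of GFP and NICD1, and the y axes differ between panels.

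The remaining tested targets differed less. Hey1, a repressor that acts downstream of Notch in blood vessels, had log2 levels of -2.37, -2.87 and -2.61 with GFP, -2.71, -2.39 and -2.41 with NICD1, -2.42, -2.42 and -2.15 with NICD2, and -1.93 and -1.88 with NICD1&2. Both NICD1&2 arrays lay above all others. The log2 differences from GFP were 0.11, 0.29 and 0.71 in NICD1, NICD2 and NICD1&2 (limma adjusted p = 0.944, 0.796 and 0.166), and the last, with a standard error of 0.17, was a 1.64-fold difference that did not meet the study's definition. It was 0.68 and 0.73 within the slides.

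Heyl, a Hey relative found in vascular smooth muscle and other mural cells, had log2 levels of -2.37, -2.93 and -2.43 with GFP, -2.40, -2.95 and -3.04 with NICD1, -3.17, -3.05 and -2.79 with NICD2, and -3.51 and -2.91 with NICD1&2. Its log2 differences from GFP were -0.22, -0.43 and -0.64 in NICD1, NICD2 and NICD1&2 (limma adjusted p = 0.928, 0.820 and 0.318). Its mean was below that of GFP in all 3 groups, and the arrays of each overlapped those of GFP. In NICD1&2 it passed an unadjusted p under 0.05 in limma, which was missed in 7 of 20 alternatives, and the difference was -0.34 without NICD1&2 replicate 1 and -0.94 without NICD1&2 replicate 2.

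Hes6, a relative of Hes1 that opposes its action, was placed among the direct targets by name only. It had log2 levels of 4.56, 4.76 and 4.79 with GFP, 4.82, 4.85 and 4.72 with NICD1, 4.50, 4.68 and 4.75 with NICD2, and 4.72 and 5.33 with NICD1&2. All groups overlapped GFP, and the log2 differences were 0.092, -0.059 and 0.32 in NICD1, NICD2 and NICD1&2 (limma adjusted p = 0.957, 0.987 and 0.404). Its second probe gave 0.03, -0.16 and 0.14.

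The remaining direct targets were below the detection limit. The Hes5 probes, for a repressor that marks neural progenitors, read -7.12 to -4.83 and -7.11 to -5.07 over the 11 arrays, and no array was well above background. The Hey2 probe, for a repressor of the heart and arteries, read -6.96 to -6.02 with none well above background. At these levels no difference between groups could be measured, also in the groups that received an NICD vector.

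The receptors were all detected on all 11 arrays. Where the Notch1 and Notch2 probes lie within their genes is not stated in the sources used here, so they do not check the NICD vectors, which carry only part of each gene. Notch1, a receptor with broad roles in vessels and stem cells, had log2 levels of 0.69, 0.66 and 0.30 with GFP, 0.56, 0.81 and 0.96 with NICD1, 0.64, -0.38 and 0.28 with NICD2, and 1.10 and 0.32 with NICD1&2. The groups overlapped GFP, and the log2 differences from GFP were 0.22, -0.37 and 0.16 in NICD1, NICD2 and NICD1&2 (limma adjusted p = 0.940, 0.895 and 0.811).

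Notch2, the receptor best known for bile duct development, had log2 levels of 1.86, 1.66 and 1.77 with GFP, 1.97, 2.09 and 2.10 with NICD1, 1.86, 2.06 and 1.99 with NICD2, and 1.77 and 1.74 with NICD1&2. All NICD1 arrays lay above all GFP arrays, and 0.21 and 0.33 were the differences within the slides. The log2 differences from GFP were 0.30, 0.21 and -0.0023 in NICD1, NICD2 and NICD1&2 (limma adjusted p = 0.812, 0.760 and 0.992), so the 1.23-fold higher level in NICD1 did not pass the adjusted threshold. It passed an unadjusted p under 0.05, also in 19 of 20 alternatives.

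Notch3, a receptor of mural cells and hepatic stellate cells, had log2 levels of 1.76, 1.92 and 1.53 with GFP, 1.72, 1.57 and 1.36 with NICD1, 1.57, 1.28 and 1.32 with NICD2, and 1.69 and 1.88 with NICD1&2. Of the NICD2 arrays 1 lay within the GFP range and the others below it. The log2 differences from GFP were -0.18, -0.35 and 0.046 in NICD1, NICD2 and NICD1&2 (limma adjusted p = 0.921, 0.712 and 0.897), and the p of NICD2 was under 0.05 before adjustment, but not in 8 of 20 alternatives.

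Notch4, an endothelial receptor, had log2 levels of 0.53, 0.59 and 0.55 with GFP, 0.63, 0.75 and 0.70 with NICD1, 0.77, 0.85 and 0.86 with NICD2, and 0.90 and 1.13 with NICD1&2. No group overlapped another, in the order GFP, NICD1, NICD2 and NICD1&2. The log2 differences from GFP were 0.14, 0.27 and 0.46 in NICD1, NICD2 and NICD1&2 (limma adjusted p = 0.916, 0.583 and 0.145), and the last, with a standard error of 0.10, was a 1.38-fold difference. Within the slides it was 0.35 and 0.58.

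A second Notch4 probe read -7.28, -4.12 and -4.28 with GFP, -4.02, -4.21 and -4.24 with NICD1, -3.76, -4.79 and -3.75 with NICD2, and -3.75 and -3.77 with NICD1&2, with 1 GFP array far below the other arrays. That array and 1 NICD2 array were not well above background, so no difference is given for this probe, although its fitted value in NICD1&2 met the study's definition. The summed signal of 9 endothelial marker genes, in units of the array's 75th percentile, was 64.5 to 69.4 with GFP, 60.5 to 67.4 with NICD1, 60.3 to 68.9 with NICD2 and 64.3 to 77.4 with NICD1&2, and Clec4g made up 54.7% to 66.6% of it. The median log2 difference of the 9 from GFP was -0.042 in NICD1, -0.030 in NICD2 and -0.067 in NICD1&2. Lyve1 met the study's definition in NICD2 and in NICD1&2, higher in both, and Tek was lower in NICD1&2 at an unadjusted p under 0.05 in limma. The ranges of the sum overlapped, and the part of endothelial cells in the Notch4 difference was not tested.

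**Figure D3:**
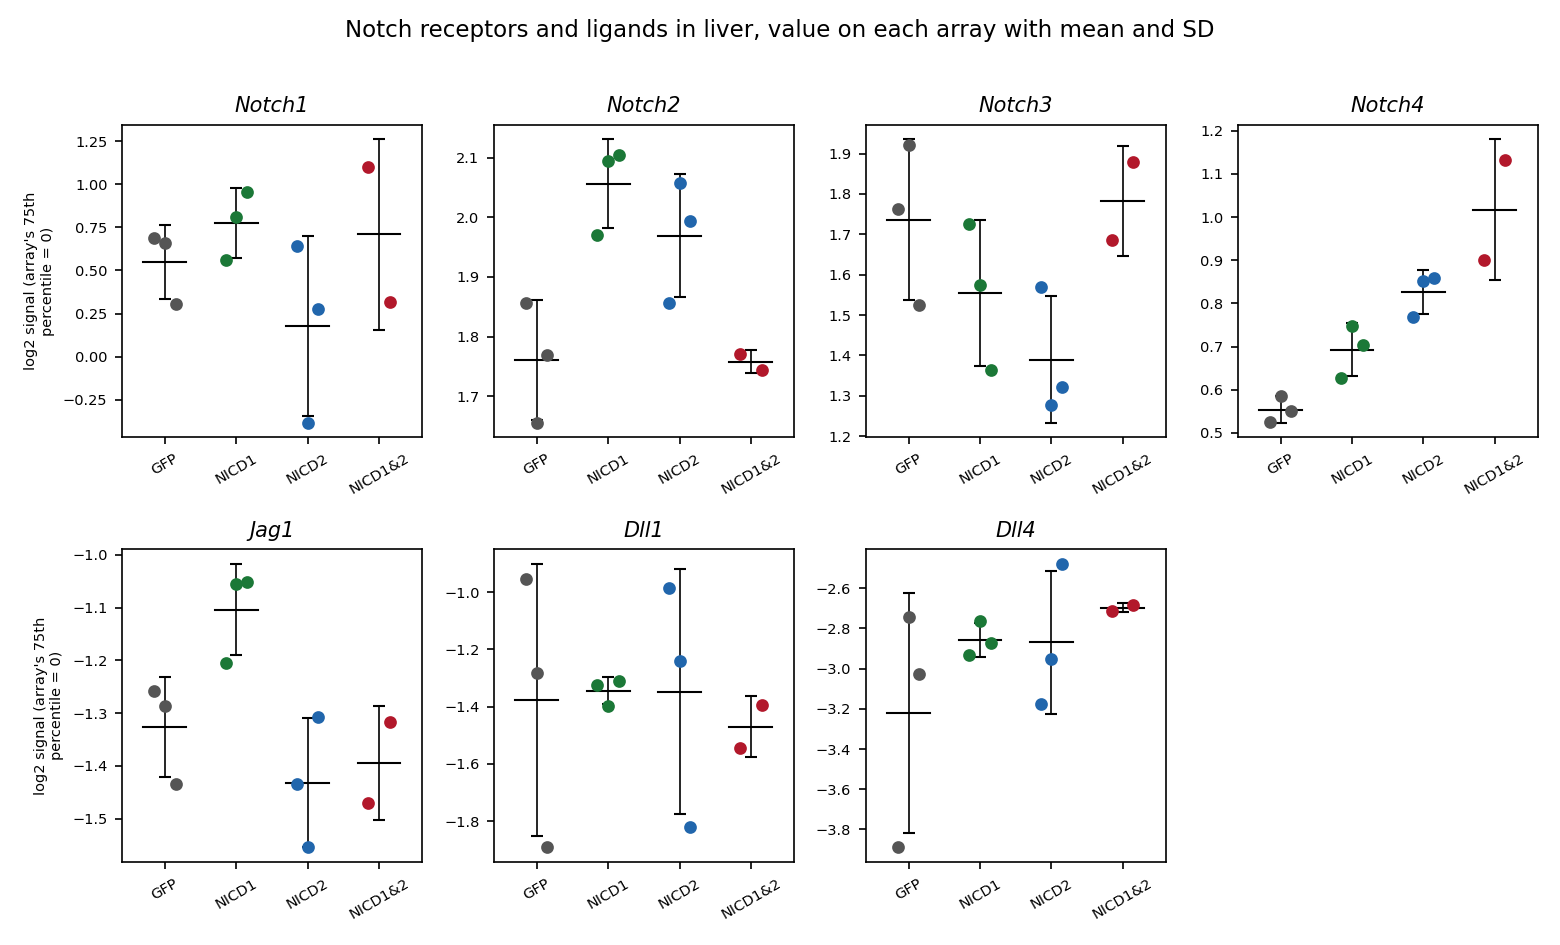
Log2 signal of the 4 receptors and 3 tested ligands (y axis, the array's 75th percentile is 0) on each array of the 4 groups (x axis), with the mean as a horizontal line and the SD as bars. The Notch4 groups do not overlap each other, the NICD1 arrays lie above the GFP arrays for Notch2 and Jag1, and the y axes differ between panels.

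Of the 5 ligands, 3 were detected. Jag1, the ligand needed for normal bile ducts, had log2 levels of -1.26, -1.29 and -1.43 with GFP, -1.20, -1.06 and -1.05 with NICD1, -1.43, -1.55 and -1.31 with NICD2, and -1.47 and -1.32 with NICD1&2. All NICD1 arrays lay above all others. The log2 differences from GFP were 0.22, -0.11 and -0.068 in NICD1, NICD2 and NICD1&2 (limma adjusted p = 0.903, 0.933 and 0.778).

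Dll4, an endothelial ligand, had log2 levels of -3.89, -2.74 and -3.03 with GFP, -2.93, -2.76 and -2.87 with NICD1, -3.17, -2.95 and -2.48 with NICD2, and -2.71 and -2.68 with NICD1&2, with 1 GFP array below the rest and both NICD1&2 arrays above all GFP arrays. Its differences from GFP were 0.36, 0.35 and 0.52 (limma adjusted p = 0.918, 0.901 and 0.430). Dll1, another Delta ligand, had log2 levels of -0.95, -1.28 and -1.89 with GFP, -1.32, -1.40 and -1.31 with NICD1, -0.98, -1.24 and -1.82 with NICD2, and -1.54 and -1.40 with NICD1&2. The Dll1 arrays of every group overlapped GFP, with differences of 0.031, 0.028 and -0.094. Jag2 read -7.00 to -5.42 and Dll3, a ligand that blocks Notch within the cell, -7.07 to -5.31, with no array well above background for either.

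Among the proteases that cut the receptor, no brightest probe was altered against GFP in any group. They were the sheddases Adam10 and Adam17 and the gamma-secretase subunits Psen2, Ncstn, Aph1a and Psenen, and their log2 differences ranged from -0.27 to 0.12 in NICD1, -0.23 to 0.18 in NICD2 and -0.46 to 0.38 in NICD1&2. By their brightest probes, 2 genes passed an unadjusted p under 0.05 in limma, both in NICD1&2. Psen2, a catalytic subunit, differed there by -0.46 (limma adjusted p = 0.329) and Psenen, another subunit of the enzyme, by 0.38 (limma adjusted p = 0.337). The other Psenen probes gave 0.46 and 0.38, and the second Psen2 probe -0.12. The unadjusted threshold was missed in 14 of 20 alternatives for Psenen, whose difference was 0.091 without NICD1&2 replicate 2 and 0.67 without NICD1&2 replicate 1, and in 9 of 20 for Psen2.

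The sugar transferases modify the extracellular part of the receptor and tune which ligand it answers. They were the Fringe genes Lfng, Mfng and Rfng, the fucosyltransferase Pofut1 and the glucosyltransferase Poglut1, and by their brightest probes 0 of the 5 passed an unadjusted p under 0.05 in limma against GFP in any group. Their log2 differences ranged from -0.17 to 0.14 in NICD1, -0.087 to 0.24 in NICD2 and -0.13 to 0.44 in NICD1&2. The highest value in each group was that of Lfng, whose group means were -2.87, -2.73, -2.62 and -2.42 in GFP, NICD1, NICD2 and NICD1&2.

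In the nuclear complex, 0 of the 6 genes passed, by their brightest probes, an unadjusted p under 0.05 in limma against GFP in any group. These were Rbpj, the DNA-binding partner of NICD, the coactivators Maml1, Maml2 and Maml3, the acetyltransferase Ep300 and the corepressor Spen. Their log2 differences ranged from -0.11 to 0.23 in NICD1, -0.074 to 0.21 in NICD2 and -0.26 to 0.089 in NICD1&2. Rbpj had group means of 0.32, 0.23, 0.28 and 0.20. Their other probes differed from this in 4 genes. A second Rbpj probe gave -0.48 in NICD1&2 (limma adjusted p = 0.320) and a second Ep300 probe gave 0.38 in NICD1 and 0.38 in NICD1&2 (limma adjusted p = 0.880 and 0.320), each under 0.05 before adjustment. The brightest Ep300 probe gave 0.17 and -0.26 there. Second probes of Maml2 (higher in NICD1 and NICD1&2) and Maml3 (higher in NICD2) met the study's definition, but were well above background on 2 and 6 of the 11 arrays.

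The genes of receptor turnover and trafficking were Numb and Numbl, adaptors that act against Notch at the membrane, the ubiquitin ligases Itch, Fbxw7 and Mib1, and the Deltex genes Dtx1 to Dtx4. None of the 9 met the study's definition against GFP. Dtx1, a ubiquitin ligase that Notch regulates in lymphocytes, had log2 levels of -2.10, -1.57 and -1.89 with GFP, -1.86, -1.99 and -2.11 with NICD1, -1.93, -1.85 and -1.71 with NICD2, and -2.46 and -2.68 with NICD1&2. Both NICD1&2 arrays lay below all others.

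Dtx1 was 1.65-fold lower in NICD1&2 than in GFP (log2 difference -0.72, standard error 0.17, limma adjusted p = 0.160), at -0.63 and -0.79 within the slides, and the differences with NICD1 and NICD2 alone were -0.13 and 0.025. The summed signal of 8 lymphocyte markers was 3.89 to 4.43 with GFP, 3.52 to 3.76 with NICD1, 3.68 to 3.83 with NICD2 and 4.29 to 4.45 with NICD1&2, and 1 of the 8 (Cd79a) met the study's definition in NICD1, lower. The part of lymphocytes in the Dtx1 difference was not tested. Numbl, Dtx2 and Dtx4 also passed an unadjusted p under 0.05 in NICD1&2, with differences of 0.41, 0.26 and -0.44. The threshold was missed in 7, 14 and 3 of 20 alternatives. Without NICD1&2 replicate 2 the difference was 0.21 for Numbl and 0.13 for Dtx2, and a second Numbl probe gave -0.0068. The remaining members of this group, Numb, Itch, Fbxw7, Mib1 and Dtx3, did not pass by their brightest probes in any group against GFP, and Dtx3 was well above background on 8 of the 11 arrays.

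Members with several probes show how far these small differences can be read. Among the 19 genes with several tested probes, all probes of a gene had the same sign for 11 genes in NICD1 against GFP, 14 in NICD2 and 10 in NICD1&2. Of the 24 tested probes that were not a gene's brightest, 2 passed an unadjusted p under 0.05 in limma in NICD1 (Ep300 and Ncstn), 2 in NICD2 (Maml3 and Ncstn) and 5 in NICD1&2 (Rbpj, Ep300, both of Psenen, and Adam17), where 5.5%, 6.86% and 14.8% of all probes did. For Ncstn, a gamma-secretase subunit, the brightest probe differed from GFP by 0.051 in NICD2 and the second by -0.37 (limma adjusted p = 0.467). Hes1, Hey1, Heyl and Nrarp each had 1 probe.

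NICD1 and NICD2 were then compared directly, since the study asked how the signals of the receptors differ. Nrarp and Hes1 were both lower with NICD1 than with NICD2, and they were the 2 members that met the study's definition, where 1.22% of all probes did, 0.488% lower. With the NICD1 array that was not well above background set at the lowest signal that was, Nrarp was at least 3.09-fold lower (limma adjusted p = 0.999979) and Hes1 3.18-fold lower (log2 difference -1.67, standard error 0.45, limma adjusted p = 0.999979). The exact two-sided permutation p was 0.1 for Nrarp and 0.1 for Hes1, the smallest possible. Within the slides the difference of Hes1 was -1.89 and -2.13. With normexp, which here includes quantile normalization, the fitted log2 differences were -0.37 for Nrarp and -0.80 for Hes1, and neither met the study's definition.

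In the same comparison, Jag1 was 1.26-fold higher with NICD1 (log2 difference 0.33, standard error 0.10, limma adjusted p = 0.999979), at 0.29 and 0.25 within the slides. Notch1 differed by 0.60 with overlapping arrays. In all, 3 members (Jag1, Hes1 and Nrarp) passed an unadjusted p under 0.05 in limma (3.73% of all probes) and none an adjusted one (0.00277%). The arrays of 6 did not overlap (9.3% of all probes): Notch4, Aph1a, Hes1 and Nrarp were lower with NICD1, and Jag1 and Numb higher.

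Both NICDs together were also set against each alone, where the absence of the GFP vector from NICD1&2 cannot be told apart from the added NICD. Against NICD1, the 2 altered members were again Nrarp (at least 4.69-fold, by the same bound) and Hes1 (log2 difference 1.39, standard error 0.50), both higher, where Nrarp was well above background on 2 of the 3 NICD1 arrays and 2.69% of all probes met the definition, 1.56% higher. In limma 10 members passed an unadjusted p under 0.05 (12.3% of all probes), none an adjusted one (0.0139%), and 13 did not overlap (30.6%). Against NICD2, where 3.07% of all probes met the definition, no member did. There 3 members passed an unadjusted p under 0.05 in limma (8.82% of all probes), namely Dtx1 (-0.74), Hey1 (0.42) and Notch3 (0.39), none passed an adjusted one (0.00277%), and 8 did not overlap (25%). Nrarp and Hes1 differed from NICD2 by 0.60 and -0.28, with standard errors of 0.64 and 0.50.

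Whether both vectors together gave the sum of the single differences was tested as an interaction in limma. No member met the study's definition (3.84% of all probes), 3 passed an unadjusted p under 0.05 (7.01% of all probes) and none an adjusted one (0%). The interaction was -0.51 for Notch2 (limma adjusted p = 0.645), -0.61 for Dtx1 (adjusted p = 0.694) and 0.58 for Notch3 (adjusted p = 0.696). For Hes1 it was -0.25, with a standard error of 0.67, and for Nrarp none is given, since its GFP arrays were not well above background.

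The wider pathway was read from 44 further Notch pathway genes, of which 43 were tested. Against GFP, 1 of them met the study's definition in NICD1, 1 in NICD2 and 2 in NICD1&2, where 2.19%, 1.97% and 6.24% of all probes did, with median log2 differences of 0.043, 0.042 and 0.063. Tle3, a Groucho corepressor that Hes proteins recruit, read 0.99, 0.87 and 0.91 with GFP, 0.94, 0.28 and 0.39 with NICD1, 0.90, 0.73 and 0.84 with NICD2, and -0.075 and -0.16 with NICD1&2. Both NICD1&2 arrays lay below all others, and the difference from GFP was -1.04 (standard error 0.18, limma adjusted p = 0.0908).

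The other altered genes of this list were Bcl6, a transcriptional repressor, in NICD1 (log2 difference -1.19, limma adjusted p = 0.910), Dlk1, a non-canonical ligand, in NICD2 (limma adjusted p = 0.796), and Cntn1, a neural adhesion protein, in NICD1&2 (limma adjusted p = 0.264). Bcl6 varied widely within GFP, at 4.81, 2.48 and 4.84. Dlk1 was well above background on 1 GFP and 1 NICD2 array, and Cntn1 on no GFP or NICD1&2 array, so no fold is given for these 2 genes.

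Among 18 further genes reported as Notch targets elsewhere, 16 were tested. Against GFP, 1 met the study's definition in NICD1, 3 in NICD2 and 3 in NICD1&2, all higher, where 1.7%, 1.32% and 4.8% of all probes were higher by the definition, and their median log2 differences were 0.15, 0.12 and 0.29. Spp1, which encodes the secreted phosphoprotein osteopontin, read 2.63, 2.83 and 3.20 with GFP, 4.43, 4.89 and 4.46 with NICD1, 4.44, 4.88 and 4.78 with NICD2, and 4.95 and 5.28 with NICD1&2. All arrays with an NICD vector lay above all GFP arrays.

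The log2 difference of Spp1 from GFP was 1.71 with NICD1 (limma adjusted p = 0.0931), 1.81 with NICD2 (adjusted p = 0.0262) and 2.23 with NICD1&2 (adjusted p = 0.0108). Spp1 thus met the study's definition in all 3 groups, and passed an adjusted p under 0.05 in NICD2 and NICD1&2 but not in NICD1. Between NICD1 and NICD2 it was -0.10 (standard error 0.20, limma adjusted p = 0.999979).

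The other altered genes of the target list were higher with NICD2, with both vectors or in each. Snai2, a repressor of epithelial genes, read 0.055, 0.21 and 0.65 with GFP, 0.75, 0.74 and 0.88 with NICD1, 1.48, 1.58 and 1.14 with NICD2, and 0.65 and 0.91 with NICD1&2, and its differences from GFP were 0.48, 1.09 and 0.47 (limma adjusted p = 0.872, 0.101 and 0.321). Cdkn1a, the gene of a cell cycle inhibitor, differed from GFP by -0.49, 1.20 and 1.84 (limma adjusted p = 0.921, 0.563 and 0.166). Sox9, a transcription factor of bile duct cells, read -1.57, -1.80 and -1.78 with GFP, -1.67, -1.18 and -1.62 with NICD1, -1.27, -0.66 and -0.70 with NICD2, and -0.024 and -1.09 with NICD1&2, and its differences were 0.23, 0.84 and 1.16 (limma adjusted p = 0.938, 0.573 and 0.195).

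**Figure D4:**
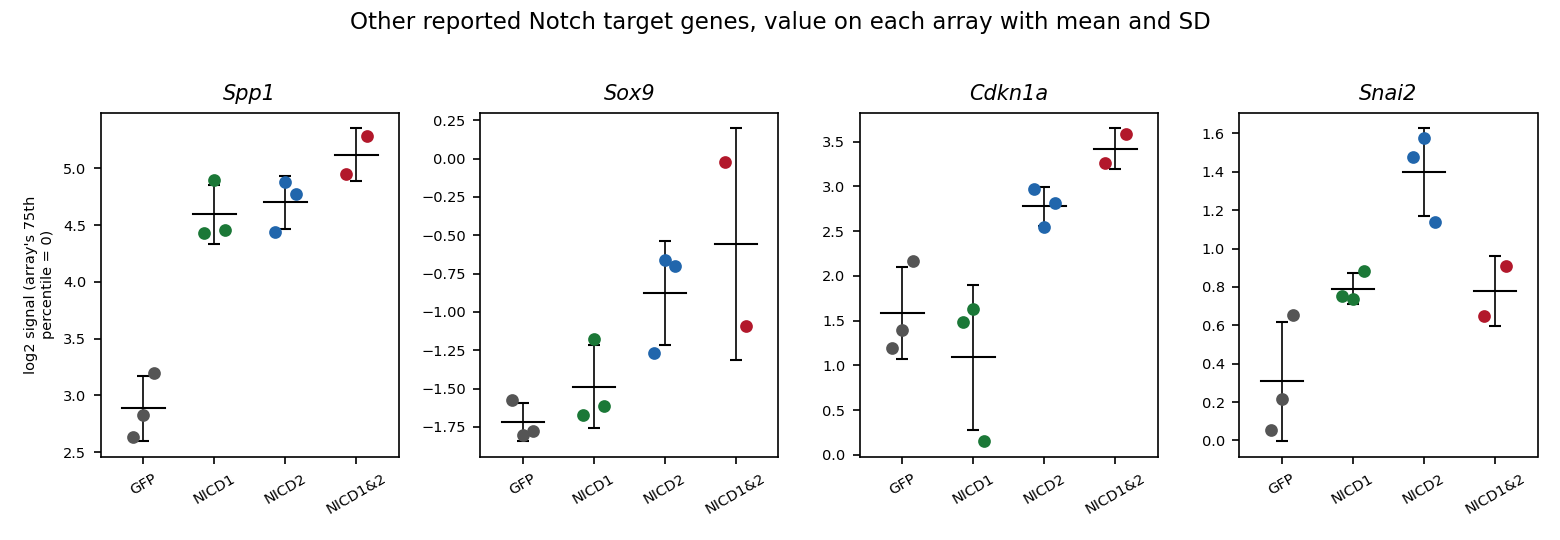
Log2 signal of Spp1, Sox9, Cdkn1a and Snai2 (y axis, the array's 75th percentile is 0) on each array of the 4 groups (x axis), with the mean as a horizontal line and the SD as bars. The Spp1 points of all 3 NICD groups lie above GFP, the Cdkn1a points of NICD2 and NICD1&2 lie above GFP and NICD1, and the y axes differ between panels.

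Marker genes of bile duct cells were read beside these results, because such cells carry Notch activity in a normal liver and because Sox9 and Spp1 are on both lists. Of the 8 markers 7 were tested, and Prom1 was not. Their summed signal was 8.02 to 11.0 with GFP, 23.6 to 31.7 with NICD1, 23.5 to 31.6 with NICD2 and 33.5 to 41.2 with NICD1&2, and Spp1 made up most of it. Without Spp1 the sum of the other 6 was 1.78 to 1.81, 1.83 to 2.01, 1.85 to 2.18 and 2.24 to 2.47, and without Sox9 as well it was 1.48 to 1.49, 1.50 to 1.65, 1.43 to 1.57 and 1.49 to 1.77. The part of bile duct cells in the Hes1 and Nrarp differences was not tested.

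The defining markers of hepatocytes, the cells that AAV8 mostly reaches, were present on all arrays. Their summed signal was 3703 to 3937 with GFP, 3274 to 3955 with NICD1, 3613 to 4102 with NICD2 and 4074 to 4199 with NICD1&2, and none of the 8 met the study's definition. Sums of 9 stellate or other mesenchymal markers were 35.6 to 41.1, 39.0 to 40.4, 40.3 to 44.9 and 36.3 to 48.4, and of 8 Kupffer cell or monocyte markers 56.9 to 74.9, 56.7 to 63.7, 58.7 to 64.2 and 65.3 to 71.6, in the same order of groups. None of these 17 genes met the definition against GFP.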

How the data were processed

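Liver RNA was labelled with Cy3 and hybridised to 1-colour Agilent arrays. The deposited scanner files hold spot intensity values (background-subtracted and detrended processed signals) made by the authors with Feature Extraction 11.5.1.1 per the file headers. The deposited value table holds log2 values that the authors shifted by each array's 75th percentile, and on the files it differed from the values used here by a constant per array.

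Outlier and control spots were left out, spots of a probe were averaged, and log2 signals less the array's 75th percentile were fitted with limma 3.58.1 in R 4.3.3, with 1 mean per group over all 11 arrays and Benjamini-Hochberg adjustment over 36048 probes well above background on at least 2 arrays. A bound ("at least") compares the group's mean with the lowest signal among well above background probes of each GFP array, or the probe's own where higher. The number of arrays limits the precision.

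The study's text gives no array test. Values were given on all arrays for direct targets, receptors, ligands, and other members that were altered or had an unadjusted p under 0.01 against GFP or between NICD1 and NICD2. Further list genes were named where altered against GFP. The members and lists were chosen with earlier results of these data known. Motifs were searched in RefSeq stretches, which held 34 of the 42 members. Alternatives covered the normalization, background correction (normexp with an offset of 50), the deposited table, the filter, the arrays fitted, replicate and slide blocks, the probe of a gene, the threshold and each array left out. The scripts were tested on simulated data.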

Additional observations from a re-analysis of the deposited data

How the results depend on the processing

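The 20 named gene results were picked because they were altered or had an unadjusted p under 0.05 in the main fit. Over 19 alternatives for Nrarp and 20 for the other genes, none of these differences changed sign, and 76 of their values lost an unadjusted p under 0.05. Given that choice, and since the alternatives largely reuse the same arrays, the kept signs are no independent support. With normexp and quantile normalization, which adds an offset and so shrinks the differences of dim probes, 0 members were altered against GFP in every group, between NICD1 and NICD2 and with NICD1&2 against NICD1 alone, and 1 member passed an unadjusted p under 0.05 in NICD1. With probes well above background on all arrays, which removes Nrarp, 0 members were altered in NICD1, and 1 each in NICD2, NICD1&2, NICD1 against NICD2 and NICD1&2 against NICD1, with 1 at unadjusted p under 0.05 in NICD1. With no filter 2 were altered in NICD1 and 1 in NICD1&2 against NICD2. With only the compared groups in the fit, 1 member passed the unadjusted threshold in NICD1 and 7 in NICD1&2.

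Leaving out each array in turn gave 1 to 1 altered members in NICD1, 2 to 2 in NICD2, 2 to 3 in NICD1&2, 2 to 2 in NICD1 against NICD2, 2 to 2 in NICD1&2 against NICD1 and 0 to 1 in NICD1&2 against NICD2, with 1 without either NICD1&2 array. The counts at unadjusted p under 0.05 were 0 to 5 in NICD1, 3 to 5 in NICD2 and 5 to 13 in NICD1&2, where the NICD1 count was 0 without GFP replicate 2, 1 without GFP replicate 1 or NICD1 replicate 2 and 5 without NICD1 replicate 1, and the NICD1&2 count was 5 without NICD1&2 replicate 2, 6 without GFP replicate 1 and 7 without GFP replicate 3 or NICD2 replicate 2. The lone array of a group of 1 is then assumed to vary like the others.

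Over 15 pairs of arrays with the same replicate number, residuals correlated at -0.43 to 0.18 (median 0.038, 6 above 0.1). Over the 30 pairs with different numbers they correlated at -0.35 to 0.47 (median 0.017, 7 above 0.1). These values show no clear pairing by replicate number and cannot exclude one. With the replicate block, 7 rather than 11 members passed the unadjusted threshold in NICD1&2, and no other count moved by over 1.5 times. Dim signal limits Nrarp, Dtx3 and the 4 genes not tested.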
